A study of Mus musculus with 12 samples.

Results

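Thrombin receptors and the proteins that hold tissue factor and thrombin in check were followed in lung lymphatic endothelial cells (LECs) of mice exposed to cigarette smoke (CS). The 10 genes, listed by name for their roles, were F2r, F2rl1, F2rl2 and F2rl3, which encode the protease-activated receptors PAR-1, PAR-2, PAR-3 and PAR-4, together with Thbd, Procr, F3, Tfpi, Tfpi2 and Vwf. They are 10 of the 52636 gene identifiers in the count tables, and all 10 were among the 21440 genes that passed the filter on low counts. F2rl3 passed it with at most 65 reads in any library.

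The receptors PAR-1 and PAR-4 are cut by thrombin, which unmasks a new N-terminus that folds back and activates the receptor. PAR-3 in mice serves mainly as a cofactor that presents thrombin to PAR-4, and PAR-2 is cut by trypsin-like proteases and by the tissue factor and factor VIIa complex rather than readily by thrombin. Tissue factor (F3) starts coagulation and is held down by tissue factor pathway inhibitor (Tfpi), while the related Tfpi2 inhibits plasmin and other serine proteases. Thrombomodulin (Thbd) binds thrombin and turns it from a clotting enzyme into an activator of protein C, and the endothelial protein C receptor (Procr) presents protein C to that complex. Von Willebrand factor (Vwf) is a large adhesive protein kept in the storage granules of endothelial cells and of platelets. In lymphatic vessels a low clotting tendency of the wall and the lymph normally keeps the lumen free of fibrin.

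LECs were sorted from digested lungs of Prox1-EGFP reporter mice as live cells that were CD31 positive, EGFP positive and negative for EpCAM and for a hematopoietic lineage cocktail. Polyadenylated RNA was amplified and sequenced as 12 libraries, each from the cells of 1 sex, marked F or M. The acute CS group (2 libraries, F and M) came from mice exposed to whole-body CS for 8 weeks, and the acute room air (RA) group (F and M) from mice of that time point kept in RA. The labels give 8 weeks as the age of these mice, while the study's methods give 8 weeks as the length of exposure. The study started exposure some weeks after birth and matched controls by age, so that these mice were older than 8 weeks at harvest. The chronic CS group (5 libraries, F and M1 to M4, labelled aged) came from mice exposed for at least 24 weeks, and the chronic RA group (3 libraries, F, M1 and M2, also labelled aged) from RA mice of that time point. All groups carried the reporter, in which EGFP marks cells with Prox1 promoter activity. Per the study's methods, acute libraries pooled cells of several mice and chronic libraries did not, so that pooling and duration cannot be told apart. The labels do not say whether libraries of 1 group came from separate exposures, and p-values measure only the spread between these libraries.

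Library totals ran from 18821438 to 56998590 reads. In the chronic CS group, F, M1 and M2 had totals of at most 22885446 reads and M3 and M4 had totals of at least 45436986. The LEC marker Prox1 was present in every library, but at 1042 and 1262 CPM (reads scaled to library size) in the acute CS libraries against 1814 to 2476 CPM in the other 10. The summed level of the 8 LEC markers checked was 6485 and 9822 CPM in acute CS, against 15254 and 17066 CPM in acute RA, 19934 to 22931 CPM in chronic RA and 14901 to 21220 CPM in chronic CS. The 13 blood endothelial markers summed to 6000.0 and 7715 CPM in acute CS, against 2958 and 3753 CPM in acute RA, 3417 to 3512 CPM in chronic RA and 2793 to 3885 CPM in chronic CS. The acute CS libraries thus went partly against the LEC label, and every acute result below was measured in them. In such bulk samples, fewer cells of a type and less RNA per cell cannot be told apart.

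The sequence at which the receptor is cut differs between the 4 genes of the family. The coding bases across the activating cleavage site are printed below, read from GENCODE M21 transcripts, with the first 6 codons of the tethered ligand (the new N-terminus that cleavage unmasks) in capitals and the 4 codons before the cut in lower case. F2r lies on the minus strand, chr13:95604885-95604914 in GRCm38. F2rl1 is on the same strand at chr13:95514241-95514270, F2rl2 on the plus strand at chr13:95700548-95700577 and F2rl3 on the plus strand at chr8:72762312-72762341. All 4 stretches lie in the second exon, the last that codes.
F2r: gtgaacccccgcTCATTCTTTCTAAGGAAT
F2rl1: agtaaaggaagaAGTCTTATTGGCAGATTA
F2rl2: ttaactattaagAGTTTTAATGGGGGTCCC
F2rl3: cctaatccacgaGGCTACCCGGGCAAATTC

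Position by position over the 18 ligand bases, F2rl1 and F2rl2 shared 10 bases, F2rl1 and F2rl3 shared 8, and F2r shared 3 to 5 bases with each of the others. The ligand begins at residue 42 of 430 in F2r, 39 of 399 in F2rl1, 38 of 369 in F2rl2 and 60 of 396 in F2rl3. F2r, F2rl1 and F2rl2 are neighbours on chromosome 13, at 95601803 to 95618487, 95511732 to 95525227 and 95696853 to 95702739. F2rl2 lies inside Iqgap2 on the opposite strand without sharing exon bases. The library kit does not mark strand, so that reads of Iqgap2 introns cannot be told apart from those of F2rl2. F2rl3 lies on chromosome 8 at 72761880 to 72763874.

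Levels were first compared between genes in the 5 RA libraries, per exon length, as FPKM (the count scaled by library size and by kilobases of exon). Thbd was the highest, at 134 ± 23.01 FPKM (SD, n = 5), followed by F2r at 88.9 ± 24.1, Procr at 48.6 ± 8.57 and Tfpi at 25.03 ± 2.22 FPKM. Tfpi2 stood at 19.2 ± 2.66, F2rl1 at 5.41 ± 1.14 and Vwf at 3.30 ± 0.564 FPKM. F3 was low, at 0.548 ± 0.284 FPKM, as were F2rl2 (0.336 ± 0.295 FPKM) and F2rl3 (0.263 ± 0.225 FPKM). The resting LEC profile was thus one of high thrombomodulin, PAR-1 and protein C receptor transcripts with little tissue factor, and with Vwf far below Thbd. Ranges overlapped between Thbd and F2r, between Tfpi and Tfpi2, between F3 and F2rl2, and between F2rl2 and F2rl3, so that the order of these neighbours is not set by these libraries, although Tfpi exceeded Tfpi2 in 5 of 5. The ranges of the other neighbours did not overlap.

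**Figure D1:**
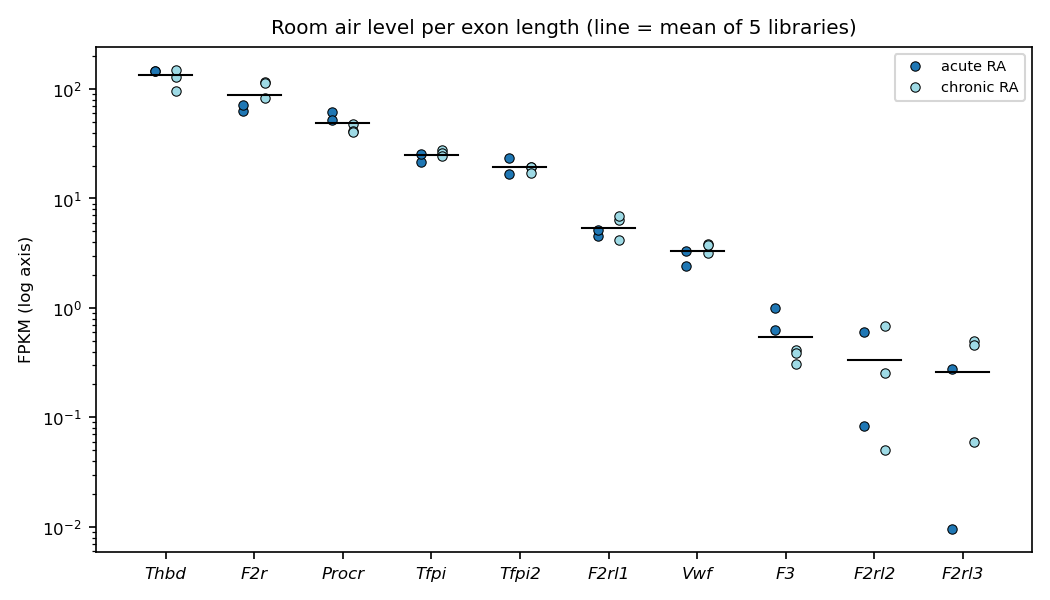
Level of the 10 genes in room air. Each point is 1 of the 5 RA libraries, in FPKM on a log axis, and the line is their mean. Thbd, F2r and Procr lie at the top, and F3, F2rl2 and F2rl3 at the bottom.

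F2r was the main receptor gene in all 12 libraries. It made up 89.3 to 96.1% of the summed FPKM of the 4 receptors, and F2rl1 made up 3.47 to 10.7%. F2rl2 and F2rl3 together gave at most 1.90%. The share of F2r did not differ detectably with CS, with exact two-sided permutation p = 1 for acute and p = 0.143 for chronic libraries. With 2 against 2 acute libraries the smallest exact p that the design allows is 0.333, with 5 against 3 chronic libraries it is 0.0357, and with 3 against 2 RA libraries it is 0.2.

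F2r, the PAR-1 gene, was at 209 and 239 CPM in acute RA (F, M), at 165 and 187 CPM in acute CS, at 387, 375 and 274 CPM in chronic RA (F, M1, M2) and at 242, 155, 126, 291 and 413 CPM in chronic CS (F, M1 to M4). The acute CS libraries lay below the acute RA libraries, and the chronic groups overlapped, since M4 exceeded every RA library while M1 and M2 were the lowest. The log2 fold change of CS over RA was -0.35 (SE 0.44) in acute and -0.49 (SE 0.32) in chronic libraries, neither past the limit in edgeR's quasi-likelihood test (Benjamini-Hochberg adjusted p = 0.825 and 0.587). Against chronic RA, the deep libraries M3 and M4 alone gave 0.03, and F, M1 and M2 alone gave -0.97 (adjusted p = 0.159, edgeR). Chronic RA exceeded acute RA for F2r, by 0.62 (SE 0.41) on the log2 scale with no overlap, and this did not pass the test either (adjusted p = 0.784, edgeR).

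F2rl1, the PAR-2 gene, was at 12.5 and 14.1 CPM in acute RA and at 6.50 and 11.3 CPM in acute CS. Its chronic levels were 11.5, 17.4 and 18.8 CPM in RA and 15.7, 6.21, 12.3, 25.2 and 23.4 CPM in CS. The acute groups did not overlap and the chronic ones did. Log2 fold changes were -0.58 (SE 0.55, adjusted p = 0.732) and 0.06 (SE 0.40, adjusted p = 0.970), both by edgeR. In the chronic CS group the deep libraries M3 and M4 were the 2 highest for F2rl1 as they were for F2r, and the part of depth in this was not tested.

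F2rl2, the PAR-3 gene, varied within both RA groups and chronic CS, from 11 to 89 reads in acute RA, 4 to 58 in chronic RA and 0 to 72 in chronic CS, and had 17 and 22 reads in acute CS. No comparison of F2rl2 passed the test, with adjusted p of 0.818 or more in each by edgeR. F2rl3, the PAR-4 gene, had 33 and 1 reads in acute RA, 47 and 65 in acute CS, 32, 32 and 4 in chronic RA, and 0, 0, 0, 2 and 0 reads in chronic CS. Every chronic CS library was thus below every chronic RA library, and 4 of 5 had no read at all, among them the deep library M4. A count of 0 still allows 3 reads, which is 0.158 CPM in F, 0.132 in M1, 0.125 in M2 and 0.0678 in M4. Chronic RA M2, with 4 reads, was at 0.119 CPM, below the levels allowed in CS F, M1 and M2. The separation of F2rl3 from that RA library is therefore not set at these depths. The pooled rate ratio of chronic CS over chronic RA was 0.0188, with an exact 95% interval of 0.00223 to 0.0706 that covers counting error only. By edgeR F2rl3 did not pass after adjustment (unadjusted p = 0.00139, adjusted p = 0.253), and by DESeq2, the other count test, it did (adjusted p = 0.0270). Both fits held all 12 libraries. With the chronic libraries alone F2rl3 did not pass the filter on low counts and was not tested. Platelets carry PAR-4, and 11 of 11 platelet and megakaryocyte markers also had lower means in chronic CS, by a median of -0.65 on the log2 scale, with 0 past the limit by edgeR, 1 at an unadjusted p under 0.05 and 1 called lower by DESeq2 (Itga2b, at 14.9 to 48.7 CPM in chronic RA and 4.20 to 12.1 CPM in chronic CS). Pf4 was at 5.62 to 12.3 CPM in chronic RA and 3.68 to 8.80 CPM in chronic CS, and Gp1ba was at 0 in 2 of the 5 chronic CS libraries. Their summed level was 46.0 to 126 CPM in chronic RA and 27.5 to 55.8 CPM in chronic CS, and their part in the F2rl3 result was not tested.

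Of the receptors, 3 did not overlap between acute groups, F2r and F2rl1 lower and F2rl3 higher in CS. Across all tested genes 49.9% did not overlap between the acute groups, so that 3 of 4 receptors is no result about them.

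**Figure D2:**
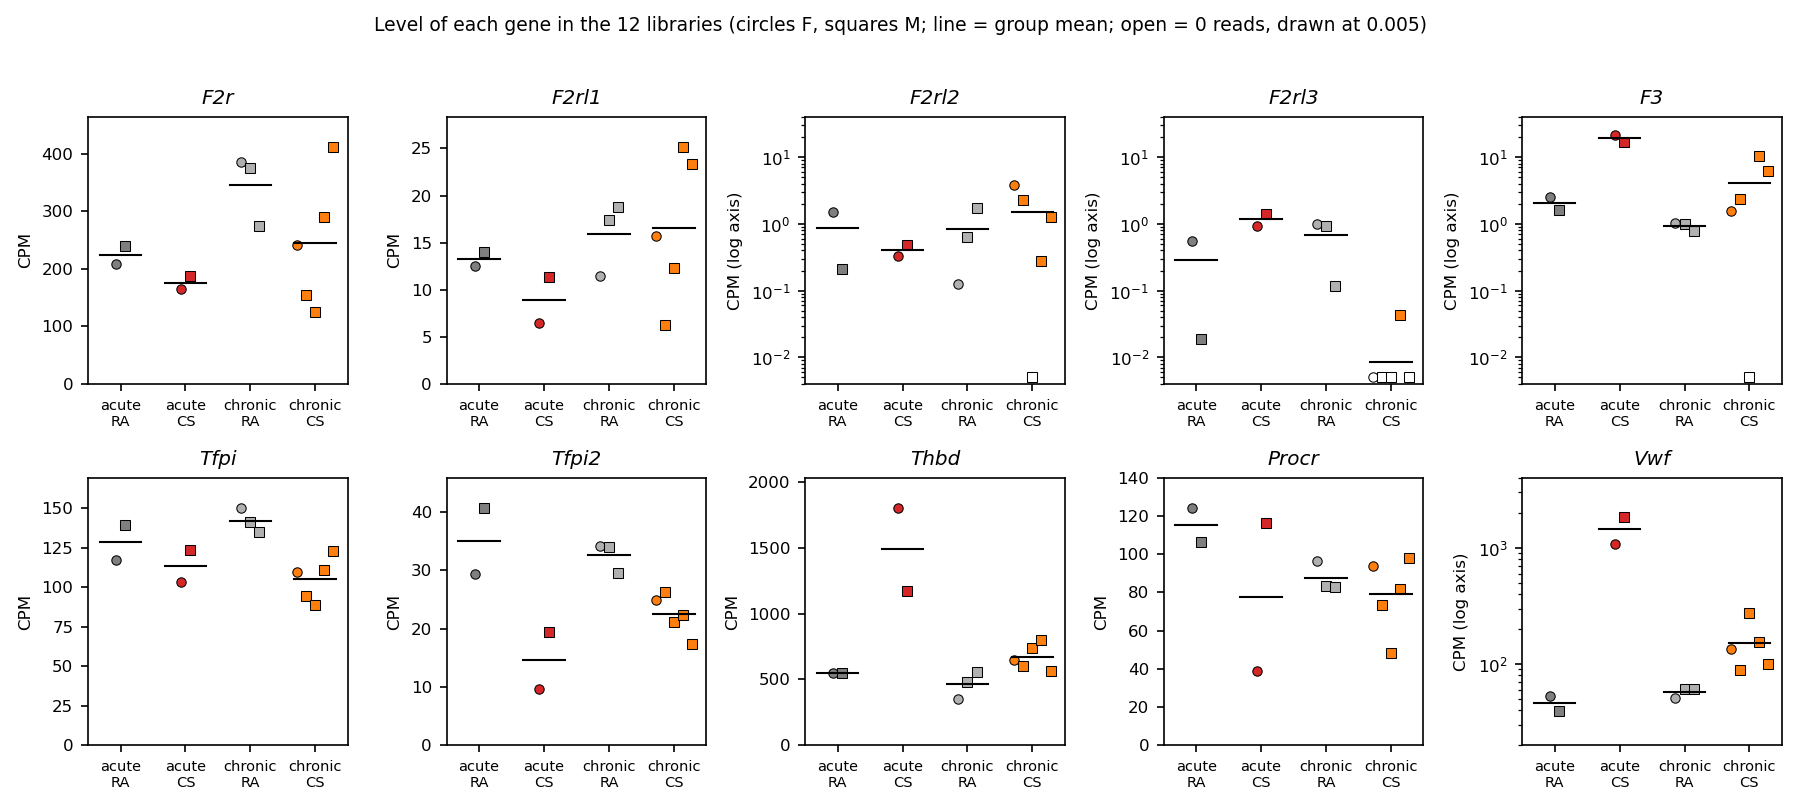
CPM of the 10 genes in each library by group, with circles for F, squares for M, and a line at the group mean. Axes are linear from 0 except for F2rl2, F2rl3, F3 and Vwf, which have log axes, and open symbols are libraries with 0 reads. Thbd, F3 and Vwf stand highest in both acute CS libraries, and F2rl3 has reads in 1 of 5 chronic CS libraries.

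Thbd and Vwf were the 2 of the 10 genes that rose in acute CS past the adjusted limit, where 3.47% of all tested genes passed it in either direction. Thbd, the thrombomodulin gene, stood at 549 and 548 CPM in acute RA and at 1808 (F) and 1173 (M) CPM in acute CS. Both CS libraries exceeded the RA pair, whose values nearly coincided. The ratio of means was 2.72 and the log2 fold change 1.44 (SE 0.25, edgeR unadjusted p = 0.000115, adjusted p = 0.0117), rank 212 of 21440 genes by p. In chronic libraries Thbd was at 354, 483 and 556 CPM in RA and at 644, 601, 739, 799 and 567 CPM in CS. The chronic groups did not overlap, although M4 at 567 CPM lay just above the highest RA library, and the change of 0.53 (SE 0.18) did not pass after adjustment (unadjusted p = 0.0140, adjusted p = 0.367, edgeR). The acute change exceeded the chronic change by 0.91 (SE 0.30) on the log2 scale, a difference that did not pass either (adjusted p = 0.243, edgeR). The acute call of Thbd was lost without acute CS F (adjusted p = 0.0860) and without either acute RA library (0.107 and 0.124), and when fitted on the acute libraries alone (0.0979), with the log2 change staying at 1.10 to 1.45.

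Procr, which presents protein C to the thrombomodulin complex, did not move with Thbd. It was at 125 and 106 CPM in acute RA, and at 39.0 (F) and 117 (M) CPM in acute CS, so that 1 CS library was well below both RA libraries and the other lay between them. Its chronic levels were 96.4, 83.5 and 82.8 CPM in RA and 94.1, 73.7, 48.2, 81.6 and 98.3 CPM in CS, with overlap. The log2 fold change was -0.57 (SE 0.42, adjusted p = 0.611) in acute and -0.14 (SE 0.31, adjusted p = 0.892) in chronic libraries by edgeR. The acute value rested on acute CS F, since it was 0.016 without that library and -1.56 (adjusted p = 0.0451, edgeR) without acute CS M. Per exon length, Thbd exceeded Procr by 2.41 to 2.81 times in acute RA and by 25.3 (F) and 5.49 (M) times in acute CS, without overlap and with exact permutation p = 0.333. The chronic ratios overlapped, at 2.005 to 3.66 times in RA and 3.15 to 8.36 times in CS (exact permutation p = 0.107).

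F3, the tissue factor gene, was nearly silent in RA. It had 2.55 and 1.59 CPM in acute RA and 21.6 (F) and 16.6 (M) CPM in acute CS, that is 151 and 84 against 1099 and 767 reads. Both acute CS libraries were higher, with a ratio of means of 9.23, and the change of 3.20 (SE 1.49) on the log2 scale did not pass by edgeR (unadjusted p = 0.0549, adjusted p = 0.335). Fitted on the acute libraries alone it was 3.19 (SE 0.41, unadjusted p = 0.000767), which did not pass after adjustment either (adjusted p = 0.0659). Chronic RA libraries held 1.03, 0.98 and 0.77 CPM of F3, and chronic CS libraries 1.58, 2.33, 0, 10.6 and 6.26 CPM. In chronic CS 4 of 5 libraries exceeded all RA libraries, whereas M2 had no read for F3 (which allows up to 3 reads), and the change of 2.16 (SE 1.12) did not pass (adjusted p = 0.503, edgeR). The chronic value of F3 rested on the deep libraries M3 and M4, which held 492 and 277 reads. Against chronic RA it was 3.17 (adjusted p = 0.0345, edgeR) with these 2 alone, 0.50 (adjusted p = 0.846) with F, M1 and M2 alone, and 1.46 (adjusted p = 0.632) without M3. Chronic RA was lower than acute RA for F3, without overlap and not past the limit (log2 change -1.15, SE 1.26, adjusted p = 0.905, edgeR).

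The promoter of F3 is shown because this gene had the largest acute ratio of means of any member after Vwf. The stretch spans chr3:121723382-121723521 on the plus strand of GRCm38.p6, from 155 to 16 bases before the start, and is taken from RefSeq. Capitals mark matches, on either strand and without overlap between them, to the letters TGANTCA (AP-1), GGAGTTTCC (the kB-like element known from the tissue factor promoter) and GGGCGG (Sp1).
F3: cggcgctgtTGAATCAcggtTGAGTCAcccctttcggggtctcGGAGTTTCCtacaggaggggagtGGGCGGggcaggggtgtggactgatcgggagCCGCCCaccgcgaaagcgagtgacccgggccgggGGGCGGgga

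It holds 2 AP-1 matches, 1 match to the kB-like letters and 3 Sp1 matches. Of 32851 RefSeq promoters of 300 bases, 7.81% hold at least 1 AP-1 match, 0.323% the kB-like letters and 35.7% an Sp1 match. A letter match is a description and not a binding site. The promoter table held 7 of the 10 genes, without F2rl1, Thbd and Vwf. Among the others, AP-1 letters were found in F2r, F2rl2, Procr and 1 of the 3 Tfpi2 promoters, and the kB-like letters in none.

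Tfpi, the inhibitor that blocks the tissue factor and factor VIIa complex, was at 118 and 139.7 CPM in acute RA and at 103 and 124 CPM in acute CS, with overlap (log2 change -0.18, SE 0.17, edgeR adjusted p = 0.729). In chronic RA it was at 150.5, 141 and 135 CPM, and in chronic CS at 109.9, 94.7, 88.8, 111 and 123 CPM. All 5 chronic CS libraries were below all 3 chronic RA libraries. The mean ratio was 0.742 and the log2 change -0.43 (SE 0.12), with unadjusted p = 0.00514 and adjusted p = 0.312 by edgeR and adjusted p = 0.0613 by DESeq2, so that it did not pass the limit in either.

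Tfpi2, its relative that inhibits plasmin, was lower in CS at both times. It had 29.3 and 40.7 CPM in acute RA against 9.68 (F) and 19.3 (M) CPM in acute CS, and 34.2, 34.0 and 29.6 CPM in chronic RA against 24.9, 26.3, 21.2, 22.3 and 17.3 CPM in chronic CS. Neither pair of groups overlapped. The acute log2 change of -1.27 (SE 0.32) fell just short by edgeR (unadjusted p = 0.00197, adjusted p = 0.0532) and passed by DESeq2 (adjusted p = 0.00256) and by edgeR without the filter on low counts (adjusted p = 0.0388). With 1 library left out the acute change ran from -1.85 without acute CS M (adjusted p = 0.0124, edgeR) to -0.85 without acute CS F (adjusted p = 0.347), and it did not pass without acute RA F (0.128), without acute RA M (0.343) or when fitted on the acute libraries alone (0.2001). The chronic change of -0.54 (SE 0.23) did not pass by edgeR (unadjusted p = 0.0347, adjusted p = 0.428). Tfpi2 was the only member below RA at both times in this sense, where 1.61% of all tested genes were.

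Set per exon length in the same library, Tfpi exceeded F3 by 21.3 and 40.7 times in acute RA and by 2.22 and 3.44 times in acute CS. In chronic RA the ratio was 66.7 to 80.5, and in the 4 chronic CS libraries with reads for F3 it was 4.87 to 32.3. The acute ratios did not overlap (exact permutation p = 0.333). Chronic CS M2, with no F3 read, gave no ratio and stood on the side of high ratios, opposite to the other 4 chronic CS libraries.

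Vwf had the largest acute change of the 10 genes. It was at 53.1 (F) and 39.0 (M) CPM in acute RA and at 1075 (F) and 1829 (M) CPM in acute CS. Both CS libraries stood far above both RA libraries, with a ratio of means of 31.5. The log2 change was 4.98 (SE 0.54, edgeR unadjusted p = 1.33e-06, adjusted p = 0.00258), rank 11 of 21440 genes by p. In chronic RA Vwf was at 51.0, 61.4 and 60.7 CPM, and in chronic CS at 134, 88.6, 276, 154 and 100.2 CPM. All 5 chronic CS libraries were above the 3 RA libraries, by 1.38 on the log2 scale (SE 0.35). This did not pass by edgeR (unadjusted p = 0.0022, adjusted p = 0.261) and passed by DESeq2 (adjusted p = 0.00270). The acute call was lost without acute RA M (log2 change 4.74, adjusted p = 0.0662).

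The acute change of Vwf exceeded its chronic change by 3.60 (SE 0.58) on the log2 scale, and this difference passed by edgeR (adjusted p = 0.0396), where 0.452% of tested genes did. Vwf was the 1 member of 10 to pass it. The difference was no longer past the limit with sex as a covariate (adjusted p = 0.0578) and without acute CS F, either acute RA library, any of the 3 chronic RA libraries, chronic CS F or chronic CS M4 (adjusted p = 0.0542 to 0.227), with values of 3.35 to 3.93. Vwf and Thbd were the 2 members above RA at both times without overlap, which 1.67% of all tested genes were.

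**Figure D3:**
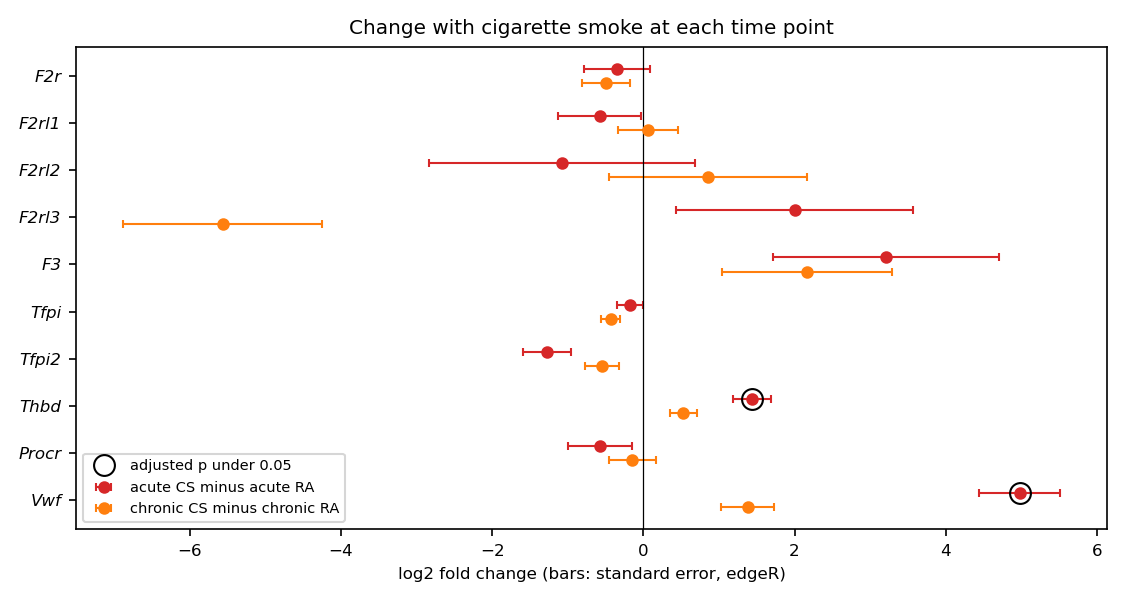
Log2 fold change of CS over RA for each gene (points) with the standard error of the edgeR fit (bars), acute in red and chronic in orange. Circles mark adjusted p under 0.05, which Thbd and Vwf reached in acute CS. F2rl3, F2rl2 and F3 have the widest bars, and the chronic value of F2rl3 rests on 2 reads and is no bound on its fold.

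Blood endothelial transcripts moved with Vwf and Thbd in the acute libraries. All 13 blood endothelial markers were higher in acute CS, by a median of 2.56 on the log2 scale. Of them, 7 passed the limit by edgeR and 10 by DESeq2, where 3.47% and 8.98% of all tested genes did. None was at 0 in both acute CS libraries. Slc6a2, a marker of pulmonary vein endothelium, was at 21.5 and 0.85 CPM in acute RA and at 225 (F) and 531 (M) CPM in acute CS, higher in M than in F as Vwf was. Car4, a capillary marker, was at 41.5 and 34.5 CPM in acute RA and at 670 (F) and 292 (M) CPM in acute CS, higher in F than in M as Thbd was. Of the 13 markers, 9 were higher in acute CS F than in acute CS M and 4 were not (Plvap, Emcn, Ackr1 and Slc6a2). The LEC markers went the other way, with 7 of 8 lower in acute CS, by a median of -1.05 on the log2 scale. Of these, 3 were past the limit by edgeR and 6 by DESeq2. These 2 sets of values stand beside the acute calls of Vwf and Thbd and the lower acute value of Tfpi2. The part of the markers in the values of these 3 genes was not tested.

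Other marker lists also shifted in acute CS. Leukocyte markers had a median change of 3.58 (6 of 7 past the limit, summed level 1230.5 and 1745 CPM in acute CS against 226 and 234 CPM in acute RA). Mesenchyme markers had a median of 2.27 (6 of 10 past the limit, summed level 798 and 1187 against 317 and 328 CPM). Alveolar macrophage markers had a median of 4.46 (1 of 6 past the limit), with a summed level of 1758 and 1768 CPM against 46.1 and 108 CPM. Platelet markers had a median of 1.40 (0 of 11, 2 at unadjusted p under 0.05) and the 4 tested mesothelial markers -0.02 (0 of 4). These counts are by edgeR. DESeq2 called 6 of 7 leukocyte, 7 of 10 mesenchyme, 5 of 6 alveolar macrophage and 2 of 11 platelet markers (Pf4 and Gp1bb) higher, and 0 mesothelial markers. It called 8.98% of all tested genes in acute libraries. For 2 lists the acute CS libraries went opposite ways. Alveolar epithelial markers summed to 6863 (F) and 267 (M) CPM in acute CS against 805 and 1110 CPM in acute RA (fitted median 1.95, 1 of 11 past the limit), and erythroid markers to 10.7 (F) and 698 (M) CPM against 37.7 and 69.9 CPM (fitted median 2.64, 0 of 6). F3 is a gene that macrophages, fibroblasts and epithelial cells also use, and the part of these cells in its level was not tested.

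In chronic CS no marker passed by edgeR, and the medians were 0.69 for blood endothelium, -0.21 for lymphatic endothelium, 1.56 for mesenchyme, 2.47 for alveolar epithelium, 1.65 for alveolar macrophage, 0.81 for leukocyte, -1.45 for erythroid and 0.03 for mesothelial markers. At an unadjusted p under 0.05, 6 of the 13 blood endothelial markers differed (11 of 13 were higher in chronic CS), as did 10 of 11 alveolar epithelial markers (11 of 11 higher) and 8 of 10 mesenchyme markers (9 of 10 higher). Over all tested genes, 10.9% were under that p. DESeq2 called 3 of 13 blood endothelial markers (Flt1, Aplnr and Gja5), 7 of 10 mesenchyme, 5 of 11 alveolar epithelial, 2 of 6 alveolar macrophage and 1 of 7 leukocyte markers higher, and the platelet marker Itga2b lower. It called 2.44% of all tested genes in chronic libraries.

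Blood endothelial markers thus also stood beside the chronic values of Vwf. Plvap made up 35.2 to 81.3% of their sum, so that the other 12 were summed too, a choice made after the data were seen. These 12 summed to 717 to 728 CPM in chronic RA and to 763 (F), 1132 (M1), 1452 (M2), 1088 (M3) and 939 (M4) CPM in chronic CS, without overlap. M2 was the highest here as it was for Vwf, but M1 came next here and was the lowest of the 5 for Vwf. In acute libraries they summed to 700.3 and 831 CPM in RA and to 4996 (F) and 2994 (M) CPM in CS, higher in F, whereas Vwf was higher in M. Flt1 was at 11.8 to 15.2 CPM in chronic RA and at 23.4 to 91.9 CPM in chronic CS, with M2 the highest. The part of blood endothelial transcripts in the chronic level of Vwf was not tested.

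**Figure D4:**
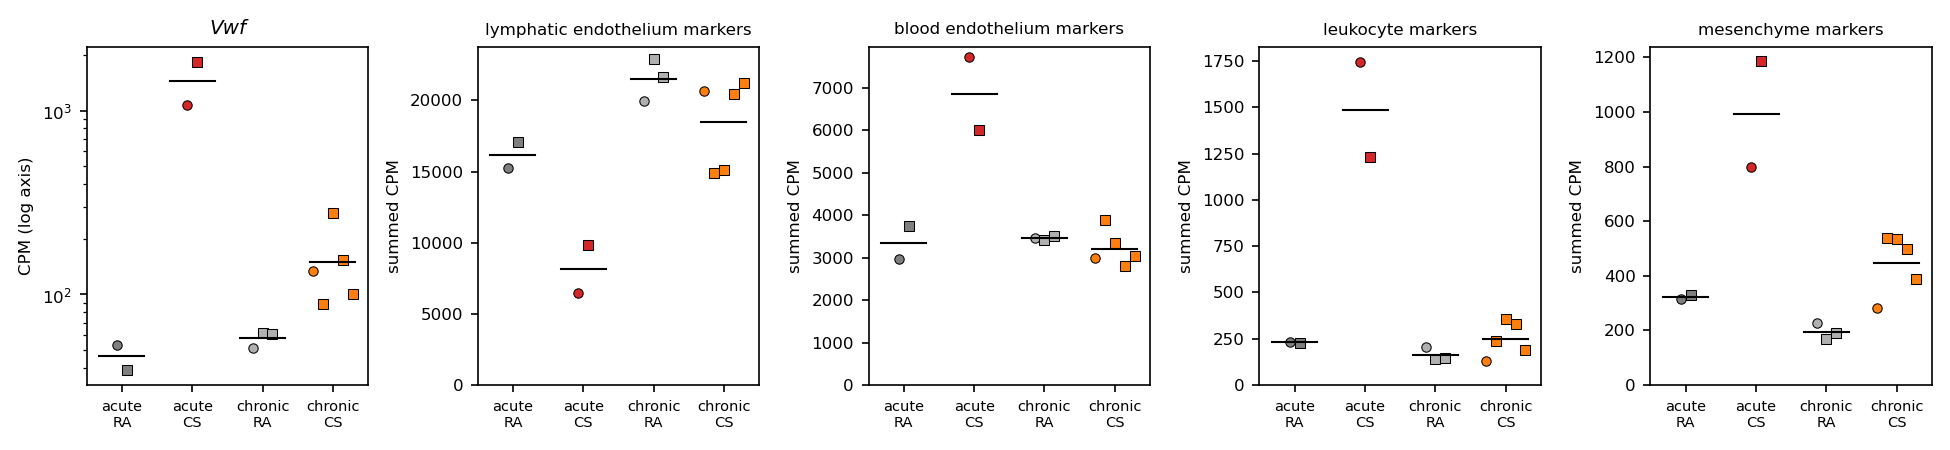
Vwf (log axis) beside the summed CPM of lymphatic endothelial, blood endothelial, leukocyte and mesenchyme markers (linear axes from 0) in each library, with circles for F, squares for M and a line at the group mean. In acute CS, Vwf and the blood endothelial, leukocyte and mesenchyme sums are highest and the lymphatic sum is lowest.

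At an unadjusted p under 0.05 by edgeR, 3 of the 10 genes differed in acute libraries (Thbd, Tfpi2 and Vwf), where 15.7% of all tested genes did, and 5 of 10 in chronic libraries (F2rl3, Thbd, Tfpi, Tfpi2 and Vwf), where 10.9% did. The same 5 genes were those whose chronic groups did not overlap, against 9.41% of all tested genes. For F2rl3 this takes counts of 0 as 0 CPM. In acute libraries 7 of 10 did not overlap (F2r, F2rl1, F2rl3, Thbd, Tfpi2, F3 and Vwf), against 49.9% of all tested genes. After adjustment, 0 members passed in chronic libraries by edgeR, which called 0% of all tested genes there, while DESeq2 called 2 (F2rl3 lower and Vwf higher) against 2.44% of all genes. In acute libraries DESeq2 called 3 members (Thbd, Vwf and Tfpi2) against 8.98% of all genes. The median log2 change over the 10 members was -0.26 in acute and -0.04 in chronic libraries, beside 0.04 and 0.01 over all genes, with 4 and 5 members higher, so that the 10 did not shift as 1 block.

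Between the RA groups, which differ in time point and in pooling, no member passed by edgeR, with 0% of all tested genes called, or by DESeq2, with 1.18% called, and none had an unadjusted p under 0.05, where 7.01% of all genes did. F2r was higher and Procr and F3 were lower in chronic RA without overlap, 3 of 10 members, against 34.7% of all tested genes. The control levels of the 10 genes thus gave no detectable difference by time point at this number of libraries. The acute and the chronic comparison have separate RA libraries, and the RA comparison shares its libraries with both.

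Among 28 other coagulation factors and inhibitors, 20 were tested, and 8 made mostly in the liver, among them the fibrinogen genes Fga, Fgb and Fgg and the protein C gene Proc, had too few reads (at most 36 in any library). F8, the cofactor of factor IX that circulates bound to von Willebrand factor, fell in acute CS. It was at 207 and 189 CPM in acute RA and at 78.9 (F) and 111 (M) CPM in acute CS (log2 change -1.06, edgeR adjusted p = 0.0460), so that F8 and Vwf went in opposite directions. The LEC markers had a median of -1.05 in the same comparison, and the part of cell makeup in the F8 value was not tested. F8 was at 267, 225 and 209.6 CPM in chronic RA and at 276, 222, 156, 199.9 and 262 CPM in chronic CS, with overlap. It was the 1 gene of 20 to pass in acute libraries, 5 had an unadjusted p under 0.05, and the median change was 0.08. Of all tested genes, 3.47% passed and 15.7% had an unadjusted p under 0.05 in acute libraries. In chronic libraries 0 of 20 passed by edgeR and by DESeq2, with 1 at an unadjusted p under 0.05 (beside 10.9% of all tested genes) and a median of -0.11. Besides F8, DESeq2 called F7 and F10 in acute libraries, both higher in CS. The mean of F7 was 1.51 CPM in acute RA and 49.7 CPM in acute CS (edgeR log2 change 5.03, adjusted p = 0.151), and that of F10 was 1.56 and 20.3 CPM (3.70, adjusted p = 0.224).

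Of 23 genes of receptor signalling, which hold the G proteins, beta-arrestins, phospholipases and trafficking proteins among others downstream of the PARs, 0 passed by edgeR in acute or chronic libraries, with 4 and 5 at an unadjusted p under 0.05. Over all tested genes, 15.7% and 10.9% were under that unadjusted p. DESeq2 called 0 in acute and 2 in chronic libraries (Rock1 and Tmed2, 1 in each direction), beside 8.98% and 2.44% of all genes. Median changes were -0.02 and -0.13. The summed level of the 23 genes was 5221 and 5262 CPM in acute CS and 5231 and 5385 CPM in acute RA, with overlap, and 4747 to 5399 CPM in chronic CS against 5443 to 5849 CPM in chronic RA, without overlap.

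Among 20 genes for storage, processing and binding of von Willebrand factor, 5 passed in acute libraries, and they went both ways. Selp, the P-selectin gene whose product shares the storage granule with von Willebrand factor, was at 2.48 and 1.04 CPM in acute RA and at 28.9 (F) and 45.3 (M) CPM in acute CS (log2 change 4.39, edgeR adjusted p = 0.0109), higher in M as Vwf was. Rab27a, a GTPase of granule release, rose from 10.2 and 9.06 CPM to 45.0 and 54.5 CPM (2.37, adjusted p = 0.0213). Lrp1, a scavenger receptor of many cell types that macrophages and fibroblasts use strongly, rose from 17.1 and 7.76 CPM to 156 and 87.3 CPM (3.29, adjusted p = 0.0184).

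Stab2, a clearance receptor for von Willebrand factor that LECs express, went down, from 657 and 664 CPM in acute RA to 238 and 249 CPM in acute CS (-1.44, edgeR adjusted p = 0.00570). The part of the lower LEC markers (median -1.05) in this value was not tested. Exoc4, an exocyst subunit, was the fifth gene past the limit and was lower. The list had a median change of -0.09, and 9 of 20 had an unadjusted p under 0.05, beside 3.47% of all tested genes past the limit and 15.7% at that unadjusted p in acute libraries. Stab2 also had a lower acute than chronic change (difference -1.49, SE 0.25, adjusted p = 0.0406, edgeR). Without chronic RA M2, 0 genes passed for this difference by edgeR, so that the Stab2 call was lost there. In chronic libraries 0 of 20 passed by edgeR, with 3 at an unadjusted p under 0.05 (beside 10.9% of all tested genes) and a median of 0.04. DESeq2 called Lrp1 there, higher in CS, beside 2.44% of all genes. Between RA groups 0 of 20 passed by edgeR and Stab2 passed by DESeq2. Selp in chronic libraries was at 3.76, 1.73 and 3.67 CPM in RA and at 1.26, 3.96, 6.69, 3.99 and 3.84 CPM in CS, with M2 the highest, as it was for Vwf.

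The genes whose log2 CPM ran most closely with each member over the 12 libraries, out of 14680 compared, are given as a description, since the libraries share groups, depth and cell makeup. For Thbd these were Pmp22 (Pearson r = 0.98), Hdc (0.96) and Ptprb (0.96), and for Vwf they were Arl4d (0.97), Tmeff1 (0.96) and Capg (0.96). F3 ran with Shroom4 (0.95), Tbxas1 (0.94) and Dact1 (0.93). Tfpi ran with Pnrc2 (0.98), Pmpcb and Leprot, Tfpi2 with Sh3gl1 (0.96), Triobp and Rcn3, and Procr with Tceal9 (0.93), Dnm1l and Vps29. F2r ran with Tgfbr3 (0.95), Thbs2 and Wbp1l, F2rl1 with Pkia (0.94), Sft2d2 and Arsb, and F2rl2 with Vamp4 (0.88), Cep295nl and Wdr45. F2rl3, under 1 CPM on average, was left out. No gene was named for 2 members.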

How the data were processed

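RNA of sorted lung LECs was sequenced after amplification of polyadenylated RNA (SMART-Seq v4 and Nextera XT kits). After adapter removal (Skewer) and read filtering (Minion), the authors mapped reads to GRCm38 with STAR and deposited the raw gene counts that STAR makes for each of the 12 libraries, and the submitters' processing notes also name FastQC 0.11.9. Whether counting used strand is not given in the sources used here. Gene names and positions came from GENCODE M21, which named 52489 of 52636 identifiers. The 147 others held at most 0.0110% of each library and stayed in the tests.

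From the counts, genes with low counts were removed by filterByExpr (21440 left), library sizes were scaled by TMM factors, and edgeR 4.0.16 (R 4.3.3) fitted 4 groups with its quasi-likelihood test, which shares 1 estimate of the spread. P-values were adjusted by Benjamini and Hochberg over all 21440 genes, with a limit of 0.05. DESeq2 1.42.0 and other settings were run as alternatives. CPM used TMM-scaled sizes, and FPKM used the union of exons. Single values were also compared by exact two-sided permutation. "No overlap" means that every library of 1 group lies above every library of the other. The script was tested on simulated counts. Intervals and floors cover counting error only. No 2 libraries of the same group agreed within sampling noise.

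The members and lists were chosen with earlier results of these data known, and the ratios within a library were added after the data were seen. Named genes were the 10 members, up to 4 genes per list and comparison past the limit by smallest p, and for each member of at least 1 CPM the 3 genes with the highest Pearson r. Exoc4, Rock1, Tmed2, F7 and F10, and the single markers Slc6a2, Car4, Plvap, Pf4, Gp1ba and those called by DESeq2, were named after their values were seen. Library labels (F, M, M1 and M2) shared by CS and RA did not pair them (see the replicate block in the closing part).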

Additional observations from a re-analysis of the deposited data

Results flagged for a closer look

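F2rl3 in chronic CS M3 was at 0.0429 CPM, or 2 reads, while the other 4 chronic CS libraries had 0 reads. The gap from this library to the others was the whole range of the group. With 4 libraries tied at 0, any read in the fifth gives this gap.

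The acute change of Vwf with CS exceeded its chronic change by 3.60 on the log2 scale (SE 0.58, edgeR quasi-likelihood test, Benjamini-Hochberg adjusted p = 0.0396), with Vwf higher in 2 of 2 acute and 5 of 5 chronic CS libraries than in any RA library of the same time. The acute groups also differed from the chronic groups in pooling, which cannot be told apart from duration.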

How the results depend on the processing

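Of 443 alternative values of single log2 changes, 404 kept their direction and their side of the limit, 16 lost the limit, 7 gained it and 16 turned direction. In acute libraries edgeR called 745 genes and 2 members, DESeq2 1926 genes, and edgeR with only the groups compared 139 genes and 1 member, losing Thbd (log2 change 1.43, adjusted p = 0.0979). In chronic libraries 0 genes and 0 members were called by edgeR, 524 and 2 by DESeq2, 10 genes without the filter, 1 gene with chronic CS F, M1 and M2 only, and 16 genes and 1 member (F3) with M3 and M4 only. Between RA groups the 0 genes called became 253 by DESeq2, 6 without the filter and 42 with only the groups compared. For the difference of the acute and chronic change, the 97 genes and 1 member became 916 and 2 by DESeq2 (Vwf and F2rl3), 191 genes without the filter, and 21 genes and 0 members with sex as a covariate (Vwf 3.58). The cause of these shifts was not tested, other than that fewer samples entered where groups or libraries were left out.

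With 1 library left out, acute calls ran from 3 to 858 genes and from 0 to 4 members, the Thbd change from 1.10 to 1.72 and the Vwf change from 4.54 to 5.31. Without acute RA M there were 3 genes and 0 members, and without acute CS M 4 members. Chronic calls ran from 0 to 4 genes, and for the difference from 0 to 263 genes and 0 to 1 members, with Vwf at 3.16 to 3.93.

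A replicate block was set on the library labels shared by CS and RA, which give only sex in acute libraries and in chronic F. With it, acute calls fell to 73 genes and 1 member (Vwf), with Thbd at 1.41 (adjusted p = 0.0547, edgeR). The difference fell to 0 genes and 0 members, with Vwf at 3.57 (adjusted p = 0.152, edgeR). Under the block the chronic change was -0.54 for F2rl1, -0.28 for F3 and -1.02 for F2r (unadjusted p = 0.00034, adjusted p = 0.278, edgeR). The labels did not pair the libraries, since deviations of same-labelled libraries correlated at 0.0693 (acute), -0.0419 (chronic F), 0.0342 (M1) and 0.00601 (M2).

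The turned values were not past the limit in the setting that turned them. With 1 library left out, the acute change of F2rl2 ran from -1.92 to 0.95 (without acute RA F) and that of Procr from -1.56 to 0.016 (without acute CS F). The chronic change of F2rl1 ran from -0.14 (without chronic CS M3) to 0.29, also below 0 without chronic RA F or chronic CS M4, and was -0.46 with F, M1 and M2 only. With M3 and M4 only, the chronic change was 0.026 for F2r, -0.11 for F2rl2 and 0.038 for Procr. Between RA groups F2rl2 was at 0.63 with sex as a covariate and at -1.18 to 1.98 with 1 library left out (above 0 without acute RA F, chronic RA M1 or chronic RA F), and Tfpi2 at -0.32 to 0.14 (above 0 without acute RA M). Scaling by library size instead of TMM factors moved the median of all genes to 0.10 in chronic libraries and to -0.10 between RA groups, and turned no member. With 2 acute libraries a group and F2rl2 and F2rl3 under 100 reads in each library, small changes may have been missed. The size of change that could be detected was not tested.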
